A study of Rattus norvegicus with 39 samples.

Results

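The alanine tRNA genes are the rows of the deposited genomic tRNA table whose name carries the amino acid Ala, chosen by that name alone and without any measured value. They were 47 of the table's 402 rows, and they carried the anticodons AGC (27 rows), TGC (15 rows), CGC (4 rows) and GGC (1 row). Rows of the same anticodon with identical counts in every library were taken as 1 row, which left 34 distinct alanine rows of 242 in the whole table. Of these, 18 held enough counts to be tested and 16 did not.

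The study examined small RNA in spermatozoa from the cauda epididymis, the storage segment of the duct, of wild-type male Fischer rats aged 11 to 12 weeks. The males had received EGME (ethylene glycol monomethyl ether), a solvent known as a testicular toxicant that damages spermatocytes, by mouth once a day for 5 days at 50, 60 or 75 mg/kg/d, or water as the vehicle, and sperm were taken after 5 weeks without exposure. Each of the 39 libraries came from its own titled sample, with 9 libraries in the group given 60 mg/kg/d (EGME60) and 10 in each of the water group (EGME0) and the groups given 50 (EGME50) and 75 mg/kg/d (EGME75). All dose groups were compared with the same EGME0 libraries, so the comparisons share their controls, and the labels do not say in words that each sample was a separate animal, so p-values measure the spread between these samples.

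Alanine tRNAs deliver alanine to the ribosome and are recognised by alanyl-tRNA synthetase mainly through a G·U wobble pair in the acceptor stem. In the AGC isoacceptor the first anticodon base is converted to inosine, which lets it read several alanine codons, while the TGC and CGC isoacceptors read codons that end in A or G. A GGC alanine isoacceptor is not part of the usual mammalian set. In mature sperm most tRNA-derived reads are fragments, largely from the 5′ end, that the cells gain during transit through the epididymis. The 5′ fragments of alanine tRNA, like those of cysteine tRNA, begin with a run of guanines and have been described as repressors of translation. The rodent ID repeats and the neuronal BC1 RNA descend from an alanine tRNA gene, so tRNA searches of the rat genome return many alanine-like copies.

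The tRNA table held between 52085 and 5545434 counts per library over distinct rows, with a median of 2707750, and the alanine rows held between 1230 and 145872 of them, with a median of 67824. The shallowest library was EGME75 replicate 24, and the median depth was 2758160 counts at EGME0 and 1434860 at EGME75. In the mature miRNA table the summed level of 6 germ cell miRNAs (the miR-34b, miR-34c and miR-449 families) was 197624 to 330892 CPM (counts per 1000000) at EGME0 and 64748 to 220530 at EGME75, with miR-449c-5p at 0 in all 10 EGME0 libraries. The 5 epithelial miRNAs summed to 6249 to 12877 CPM at EGME0 and 18091 to 47724 at EGME75, where all 10 libraries lay above the highest control. The 6 of 7 listed blood cell miRNAs in the table summed to 0 to 3432 CPM at EGME0 and 2478 to 48241 at EGME75, with miR-144-3p at 0 in both groups. Its members did not all move alike. In raw counts at EGME0 and EGME75, miR-142-5p had 43 and 7 and miR-142-3p 5 and 5. The same counts were 51 and 124 for miR-451-5p, 95 and 116 for miR-223-3p, and 71 and 97 for miR-150-5p. The 4 muscle miRNAs summed to 9539 to 32667 CPM at EGME0 and 11152 to 98000 at EGME75. Most of that list was miR-145-5p, with 2161 counts at EGME0 and 1847 at EGME75, while miR-133a-3p had 173 and 8 counts and miR-1-3p 28 and 0. These are raw sums, and the miRNA table was shallower at EGME75. Its median was 15324.5 counts per library at EGME0 and 3201.5 at EGME75, so the raw sums of the 2 groups are not on a common scale. The library EGME75 replicate 24 held only 139 miRNA counts and set the lowest germ cell level of its group. These levels come from the same libraries as every alanine result given here, and their part in those results was not tested. In such bulk libraries fewer cells of a type and less RNA per cell cannot be told apart.

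Alanine tRNA was a mid-ranking class, and 1 TGC row supplied most of it. It took a mean of 2.26% of the tRNA counts and ranked 9th of 21 amino acid classes over all libraries. Of the 2444210 alanine counts, AlaTGC rows held 77.6%, AlaAGC rows 19.5%, AlaCGC rows 2.89% and the AlaGGC row 0.0131%. The row trna4146-AlaTGC on chromosome X, by the table's Rnor_6.0 names, alone held 75.5%, that is 1844404 counts. All these shares are of counts and are not corrected for length. The AlaAGC sum adds up rows with similar counts, described below, that can take the same reads. Its share may therefore be too high and that of AlaTGC too low.

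The other abundant AlaAGC rows fell into groups with similar counts. Of the 47 deposited rows, 20 fell into 7 sets with identical counts in every library. Further rows had similar counts. The rows trna2057-AlaAGC (chromosome 2), trna1608-AlaAGC (chromosome 17) and trna934-AlaAGC (chromosome 18) held 3.997%, 3.93% and 3.91% of the alanine counts, and trna3877-AlaAGC (chromosome 17), trna6234-AlaAGC (chromosome 1) and trna3868-AlaAGC (chromosome 17) held 2.32%, 2.29% and 2.10%. The least close of these was trna3868, whose median absolute log2 ratio to trna3877 was 0.112, with a maximum of 0.633. Near-identical genes can take the same reads, so the rows within such a trio are not separate measurements and the level of any single one of them is uncertain. Similar counts also crossed an anticodon boundary, in a pair named after its values were seen. The ratio of trna12027-AlaTGC to trna3820-AlaCGC counts was 0.985 at its lowest, 1.01 at its median and 1.06 at its highest over the 39 libraries.

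Chromosome 17 carried 15 of the 47 deposited rows. Chromosome X carried 11 of the 15 deposited AlaTGC rows, of which 10 were too low to test while the other was trna4146. The 16 untested distinct rows, which stood for 24 deposited rows, held at most 202 counts each over the 39 libraries and together 0.0199% of the alanine counts. Of the deposited rows, 4 were at 0 in every library.

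Within the alanine counts, the mean share of AlaTGC rows was lower and that of AlaAGC rows higher in the dosed groups. For both, only the EGME75 difference kept its call with chip as a fixed term. Nearly all AlaTGC counts, 1844404 of 1895721, were those of trna4146-AlaTGC, so the AlaTGC share mainly follows that row. The shares are taken inside the alanine counts of each library, so they do not depend on how the other tRNAs are scaled. AlaTGC made up 76.1% of alanine counts in the lowest EGME0 library, 84.2% at the median and 86.4% in the highest. The same values were 70.6%, 78.8% and 82.7% at EGME50, 65.2%, 73.6% and 85.6% at EGME60, and 58.4%, 67.7% and 76.1% at EGME75. All 10 EGME75 libraries lay below the lowest control, which the highest of them missed by a narrow margin (76.098% against 76.119%), while EGME50 and EGME60 overlapped the controls.

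The mean AlaTGC share was 83.2% ± 3.04 (SD, n = 10) at EGME0 and 78.5% ± 3.89 (SD, n = 10) at EGME50, a difference of -4.70 percentage points (2-sided permutation test, p = 0.00743, adjusted p = 0.0149 over the 12 tests of 4 anticodons at 3 doses), and 10 of 10 libraries lay below the control median. At EGME60 the mean was 74.5% ± 6.28 (SD, n = 9), a difference of -8.73 points (exact permutation p = 0.00156, adjusted p = 0.00468), with 8 of 9 libraries below the control median. At EGME75 it was 67.2% ± 5.23 (SD, n = 10), a difference of -16.0 points (permutation p = 2e-05, adjusted p = 1.2e-04). The AlaTGC share thus fell at each dose in this test, which takes no account of chip.

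The AlaAGC share rose by nearly as much as the AlaTGC share fell. Both are shares of the same alanine counts and together make up nearly all of them. A fall in one share thus nearly fixes a rise in the other, and the AlaAGC tests largely repeat the AlaTGC tests. The lowest, median and highest AlaAGC shares were 11.3%, 13.4% and 18.7% at EGME0, 13.9%, 18.7% and 23.02% at EGME50, 12.0%, 23.2% and 31.9% at EGME60, and 22.4%, 29.4% and 38.7% at EGME75. All 10 EGME75 libraries were above the highest control. The mean rose from 13.8% ± 2.30 (SD, n = 10) at EGME0 by 4.55 points at EGME50 (permutation test, adjusted p = 0.0066), by 7.86 points at EGME60 (exact permutation, adjusted p = 0.00468) and by 15.9 points at EGME75, where it was 29.8% ± 4.80 (SD, n = 10; permutation test, adjusted p = 1.2e-04).

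**Figure D1:**
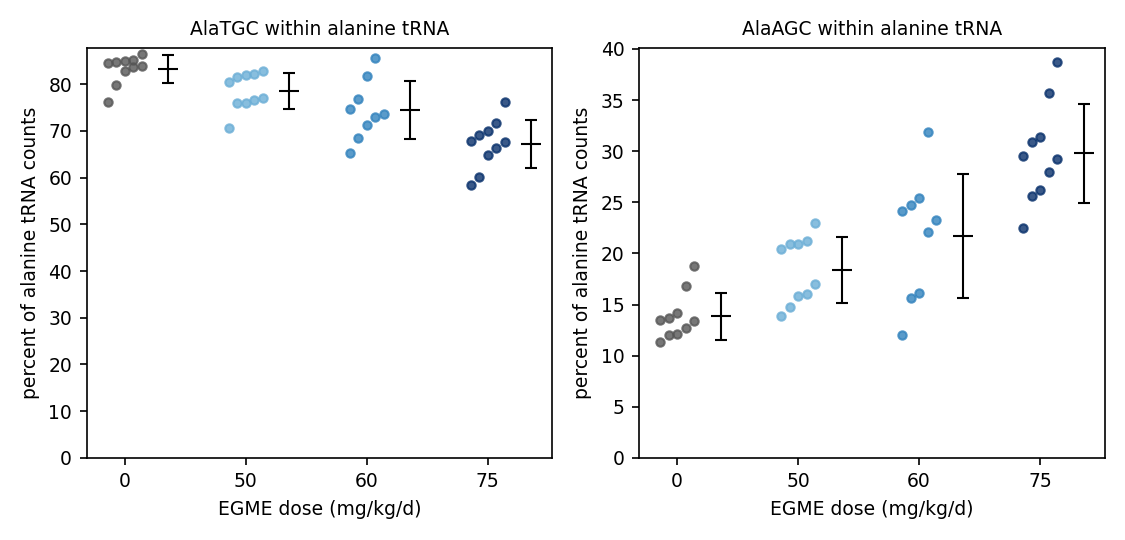
Share of each library's alanine tRNA counts (percent) held by AlaTGC (left) and AlaAGC (right) rows, by EGME dose in mg/kg/d. Points are libraries and bars are the mean ± SD. The AlaTGC mean goes from 83.2% at 0 to 67.2% at 75 mg/kg/d, and the AlaAGC mean from 13.8% to 29.8%.

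The 39 libraries were labelled with 13 chips of 3 libraries each, called batches in the labels, and too few libraries share a chip for a test within each one. With chip as a fixed term and labels permuted within chip, the AlaTGC difference was -4.65 points at EGME50 and -7.19 at EGME60 (permutation within chip, adjusted p = 0.270 for both), so those calls were lost, and -15.6 points at EGME75 (adjusted p = 3e-04). The AlaAGC difference was 4.57, 6.69 and 15.4 points at the 3 doses in that fit (permutation within chip, adjusted p = 0.270, 0.270 and 3e-04). Counting near-identical rows once, a choice made after seeing the data, brought the AlaTGC difference to -2.29 points at EGME50 (permutation test, adjusted p = 0.0701), -5.03 at EGME60 (0.00896) and -8.26 at EGME75 (1.8e-04). The AlaAGC difference was then 2.01, 3.86 and 7.76 points (permutation test, adjusted p = 0.0121, 0.00507 and 1.8e-04).

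AlaCGC held a small part of alanine counts, and its share did not pass the test at any dose. Its mean share was 2.93% in controls and 3.09%, 3.81% and 3.01% at the successive doses (permutation tests, adjusted p = 0.808, 0.328 and 0.842). The AlaGGC share was 0.0185% at EGME0 and 0.00589% at EGME75 (permutation test, adjusted p = 0.0213). That row had a mean of only 8.21 counts per library, and its call was lost on a log2 ratio scale (adjusted p = 0.282) and with the chip term (adjusted p = 0.153).

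As a class, alanine tRNA was lower at EGME75 relative to the other tRNAs. Its lowest, median and highest share of the tRNA counts was 0.873%, 2.52% and 3.79% at EGME0, 0.626%, 2.42% and 3.02% at EGME50, 0.251%, 2.32% and 3.08% at EGME60, and 0.995%, 2.22% and 2.87% at EGME75. The 4 groups overlapped, and a few low libraries stood out at EGME0, EGME50 and EGME60. After TMM scaling, which sets libraries on a common scale by trimmed means, edgeR's quasi-likelihood test gave a log2 change of -0.82 ± 0.30 (SE) at EGME75 (adjusted p = 0.0172), when 57.1% of the 21 classes were called. The changes were -0.17 at EGME50 (edgeR adjusted p = 0.860), with 0.0% of classes called, and -0.57 at EGME60 (edgeR adjusted p = 0.168), with 28.6% called. The slope on dose, expressed per 75 mg/kg/d on the log2 scale, was -0.75 ± 0.29 (SE; edgeR adjusted p = 0.0253, with 52.4% of classes called). The EGME75 call was lost with library totals in place of TMM (-0.28, edgeR adjusted p = 0.366) and with the sum of the 4 deposited tables as library size (-0.72, edgeR adjusted p = 0.0626). The slope call was lost under the same settings (-0.29 and -0.69, edgeR adjusted p = 0.314 and 0.0586), with chip as a fixed term (-0.65, edgeR adjusted p = 0.0834), and without EGME0 replicate 1 or EGME0 replicate 10.

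By anticodon, 3 of the 4 alanine isoacceptors fell at EGME75 and 0 rose in the edgeR test, when 53.2% of 47 anticodons were called, 29.8% as lower and 23.4% as higher. AlaTGC held 0.664% of tRNA counts at its lowest, 2.14% at its median and 3.21% at its highest at EGME0, and 0.697%, 1.49% and 1.93% at EGME75. All 10 EGME75 libraries were below the control median, and the ranges overlapped. Its edgeR log2 change was -1.04 ± 0.30 (SE; adjusted p = 0.00349). AlaCGC held 0.0446%, 0.0668% and 0.1004% at EGME0 and 0.0346%, 0.0634% and 0.0805% at EGME75, with an edgeR log2 change of -0.60 ± 0.18 (SE; adjusted p = 0.00377). The AlaCGC call was lost with library totals (-0.17, edgeR adjusted p = 0.475) and with the sum of the 4 tables (-0.60, edgeR adjusted p = 0.0511). AlaGGC changed by -1.58 ± 0.47 (SE; edgeR adjusted p = 0.00394), but it is 1 row with only 320 counts over all libraries. It alone among the 3 kept its call with library totals (-1.15, edgeR adjusted p = 0.0284).

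AlaAGC held 0.163%, 0.311% and 0.522% of tRNA counts at EGME0 and 0.261%, 0.599% and 1.11% at EGME75. Its edgeR log2 change of 0.41 ± 0.28 (SE) did not pass (adjusted p = 0.213), but with library totals in place of TMM it was 0.85 (edgeR adjusted p = 0.0132), while that of AlaTGC was -0.60 (edgeR adjusted p = 0.0569). The median log2 change of all anticodons moved from 0.04 under TMM to 0.46 under library totals. Relative to that median, AlaTGC was at -1.06 to -1.09 and AlaAGC at 0.35 to 0.39 under the 4 scalings tried. A change of scaling shifts all anticodons nearly alike, so these narrow ranges cannot show that the changes are stable. At EGME50, 0 of the 4 alanine anticodons passed in edgeR, none had an unadjusted p under 0.05, and 0.0% of anticodons were called. At EGME60, 0 of 4 passed in edgeR when 31.9% of anticodons were called. AlaTGC came closest there, with a log2 change of -0.69 ± 0.30 (SE; edgeR unadjusted p = 0.0277, adjusted p = 0.0766). It passed with limma-voom and chip as a random block (-0.84, adjusted p = 0.0485), and in edgeR without EGME0 replicate 26 or EGME60 replicate 30. On the slope AlaTGC (-0.95), AlaCGC (-0.52) and AlaGGC (-1.26) passed in edgeR (adjusted p = 0.00571, 0.0105 and 0.00941) and AlaAGC did not (0.35, adjusted p = 0.276), with 48.9% of anticodons called, 27.7% as lower and 21.3% as higher. With chip as a fixed term the slope calls of AlaCGC and AlaGGC were lost (edgeR adjusted p = 0.0599 and 0.0751). Library totals ended the slope calls of AlaTGC and AlaCGC (edgeR adjusted p = 0.0535 and 0.503) and brought AlaAGC past the threshold (0.75, edgeR adjusted p = 0.0205), and the sum of the 4 tables ended that of AlaCGC (edgeR adjusted p = 0.0688).

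**Figure D2:**
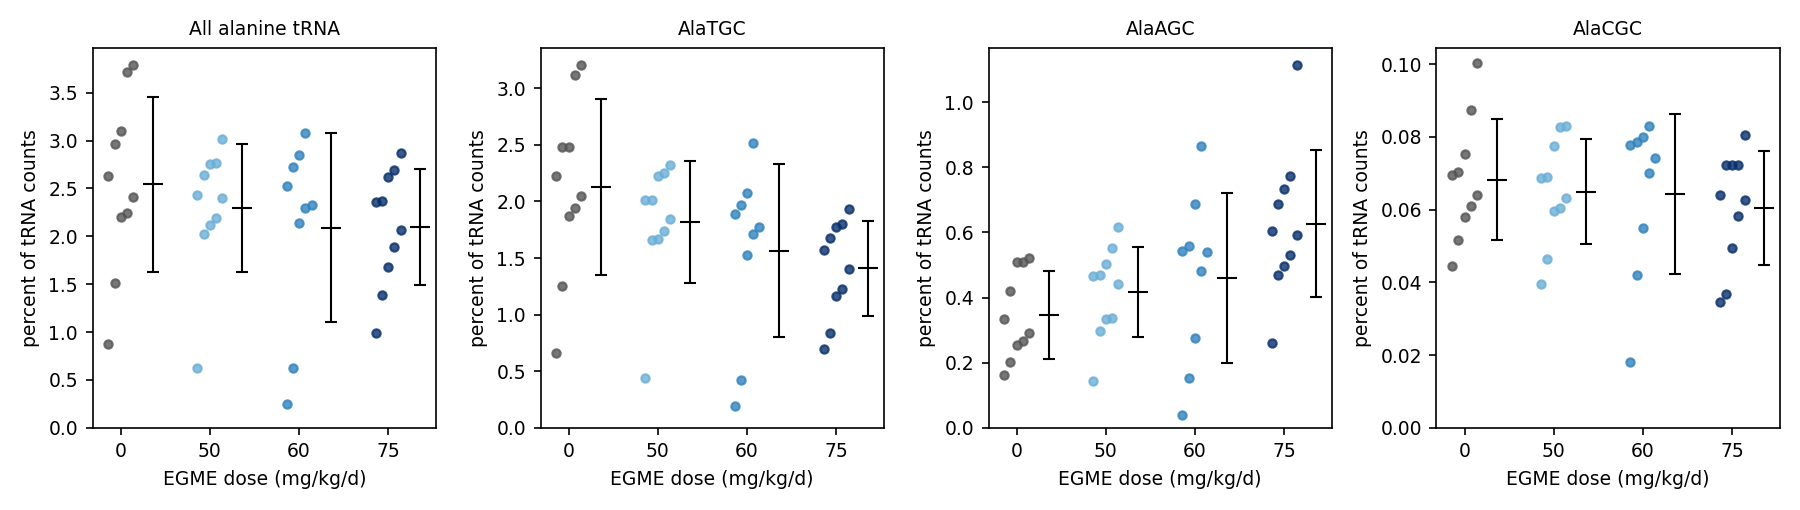
Percent of each library's tRNA counts held by all alanine rows and by the AlaTGC, AlaAGC and AlaCGC rows, by EGME dose in mg/kg/d, each panel on its own axis from 0. Points are libraries and bars are the mean ± SD. The AlaTGC median goes from 2.14% at 0 to 1.49% at 75 mg/kg/d and the AlaAGC median from 0.311% to 0.599%, with overlapping ranges.

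Row by row, alanine tRNA genes moved in both directions at EGME75, also among rows of the same anticodon. In edgeR 4 of the 18 tested alanine rows rose and 7 fell (61.1%), against 64.7% of all 190 tested rows, of which 36.8% rose and 27.9% fell. The share called among alanine rows was thus close to that of the whole table. The median log2 change was 0.01 over the alanine rows and 0.16 over all rows. All 4 rows that rose were AlaAGC, while 2 AlaAGC, 2 AlaTGC, 2 AlaCGC rows and the AlaGGC row fell. Of those 4, trna3877, trna6234 and trna3868 form a trio with similar counts and are not separate measurements. With library totals in place of TMM the split was 6 higher and 2 lower in alanine, and 87 higher and 38 lower over all rows against 70 and 53.

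The dominant row, trna4146-AlaTGC, stood at 6075 CPM in the lowest EGME0 library, 23914 at the median and 32876 in the highest, after TMM scaling. At EGME50 the values were 4576, 20181 and 28249 CPM, at EGME60 2753, 16029 and 23591, and at EGME75 6771, 11615 and 18367. All 10 EGME75 libraries were below the control median, though none was below the lowest control. The edgeR log2 change was -0.87 ± 0.31 (SE) at EGME75 (adjusted p = 0.0119), -0.57 at EGME60 (adjusted p = 0.161) and -0.18 at EGME50 (adjusted p = 0.999). It was -0.62 at EGME75 with library totals (edgeR adjusted p = 0.0631), and -0.95 to -1.16 relative to the median of all rows over 50 settings. A change of scaling shifts all rows nearly alike, and most of these settings only leave out 1 library. That narrow range therefore cannot show that the fall is stable.

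The trio of trna3877-AlaAGC, trna6234-AlaAGC and trna3868-AlaAGC was among the 4 rows that rose at EGME75, and its rows are not separate measurements. In CPM, trna3877 had 167, 334 and 454 as its lowest, median and highest values at EGME0, 137, 465 and 687 at EGME50, 57.4, 647 and 955 at EGME60, and 436, 779 and 1251 at EGME75. At EGME75, 9 of 10 libraries were above the highest control. Its edgeR log2 change was 1.27 ± 0.30 (SE) at EGME75 (adjusted p = 3.2e-04), 0.75 at EGME60 (adjusted p = 0.0610) and 0.48 at EGME50 (adjusted p = 0.764). The similar rows trna6234 and trna3868 changed by 1.27 and 1.13 at EGME75 (edgeR adjusted p = 3.61e-04 and 0.00147).

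The 4th row that rose, trna7459-AlaAGC on chromosome 10, was low, with a mean of 56.1 counts per library. It had 0, 13.1 and 18.6 CPM as its lowest, median and highest values at EGME0 and 0, 30.5 and 43.9 at EGME75, so the groups overlapped at the low end. Its edgeR log2 change at EGME75 was 1.24 (adjusted p = 8.43e-04).

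The other abundant AGC trio did not pass the test. In CPM, trna2057-AlaAGC had 323, 847 and 1270 at EGME0, 364, 999 and 1472 at EGME50, 136, 891 and 1335 at EGME60, and 503, 1055 and 1365 at EGME75, with wide overlap at every dose. Its edgeR log2 change at EGME75 was 0.33 ± 0.29 (SE; adjusted p = 0.330), and those of trna1608-AlaAGC and trna934-AlaAGC were 0.32 and 0.29 (adjusted p = 0.348 and 0.394). Relative to the median of all rows, trna2057 was at 0.06 to 0.26 over the 50 settings and trna3877 at 1.01 to 1.19. As for trna4146, such ranges cannot show that a change is stable.

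Count ratios between rows of the same library, chosen after the values were seen and given as a description, set these rows against each other without any scaling. The ratio of trna4146-AlaTGC to trna2057-AlaAGC counts was 18.8, 27.9 and 33.98 at its lowest, median and highest at EGME0, 12.6, 19.2 and 26.6 at EGME50, 10.3, 15.3 and 30.3 at EGME60, and 8.61, 12.0 and 14.5 at EGME75. All 10 EGME75 libraries were below the lowest control, as were 5 of 10 at EGME50 and 6 of 9 at EGME60. The ratio of trna3877-AlaAGC to trna2057-AlaAGC was 0.341, 0.415 and 0.517 at EGME0, 0.324, 0.447 and 0.618 at EGME50, 0.376, 0.619 and 0.869 at EGME60, and 0.409, 0.838 and 1.06 at EGME75. For this pair, both AGC, 3 of 10, 7 of 9 and 9 of 10 libraries at the 3 doses were above the highest control.

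Among the named rows that fell, trna1329-AlaCGC on chromosome 3 overlapped least with its controls. In CPM it had 178, 292 and 387 as its lowest, median and highest values at EGME0, 174, 269 and 364 at EGME50, 69.0, 273 and 361 at EGME60, and 60.2, 151 and 215 at EGME75. At EGME75, 7 of 10 libraries were below the lowest control. The edgeR log2 change was -1.03 ± 0.24 (SE) at EGME75 (adjusted p = 3.23e-04), -0.40 at EGME60 (adjusted p = 0.211) and -0.09 at EGME50 (adjusted p = 0.999).

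The other CGC rows did not all follow it. The row trna3820-AlaCGC, the near match of an AlaTGC row, changed by 0.17 at EGME75 (edgeR adjusted p = 0.261), and the count ratio of trna1329 to trna3820 was 0.977 to 1.34 at EGME0 and 0.171 to 0.830 at EGME75, without overlap. An AGC row on chromosome 17, trna1675-AlaAGC, was at 13.5, 28.9 and 50.1 CPM at EGME0 and 0, 15.9 and 26.2 at EGME75. Its ranges overlapped, and its edgeR log2 change was -0.88 ± 0.26 (SE; adjusted p = 0.00339), or -0.61 with library totals (edgeR adjusted p = 0.0584). The remaining rows that fell changed by -1.45 (AlaGGC, edgeR adjusted p = 0.0078) to -0.54 (trna4747-AlaTGC, edgeR adjusted p = 0.0277). Of these, trna3821-AlaAGC, trna1601-AlaCGC and trna4747-AlaTGC lost their call with library totals (edgeR adjusted p = 0.0917, 0.255 and 0.306), and trna1601, trna4747 and the AlaGGC row lost it with chip as a fixed term.

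**Figure D3:**
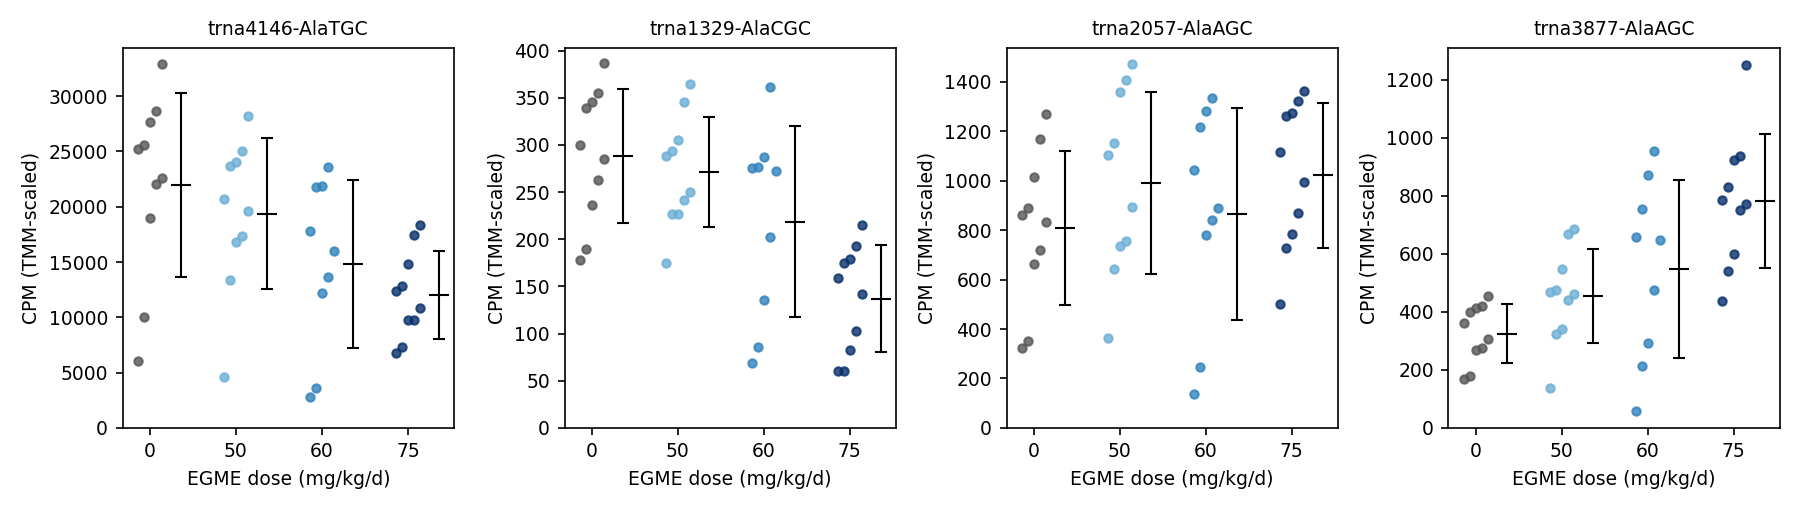
TMM-scaled CPM of 4 alanine rows by EGME dose in mg/kg/d, each panel on its own axis from 0. Points are libraries and bars are the mean ± SD. At 75 mg/kg/d trna4146-AlaTGC and trna1329-AlaCGC have medians of 11615 and 151 CPM against 23914 and 292 at 0, trna2057-AlaAGC overlaps the controls throughout, and 9 of 10 libraries of trna3877-AlaAGC lie above the highest control.

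At the lower doses no alanine row passed in edgeR with TMM scaling and the standard filter. At EGME50, 0 of 18 alanine rows passed in edgeR, 0 had an unadjusted p under 0.05, and DESeq2 and limma-voom also called 0; 0.0% of all rows were called. At EGME60, 0 of 18 passed in edgeR when 21.6% of all rows were called, 4 alanine rows had an unadjusted p under 0.05, DESeq2 called 1 and limma-voom called 0. In edgeR 2 passed at EGME60 with library totals, with no filter, with a minimum mean of 10 counts, or with every deposited row kept. With library totals, 42 rows of the whole table were higher and 15 lower at that dose. The 4 rows with an unadjusted p under 0.05 were all AlaAGC and were the 4 that rose at EGME75. They include the trio of trna3877, trna6234 and trna3868, which are not separate measurements, and both comparisons used the same controls. Between neighbouring doses, 0 alanine rows differed from EGME50 to EGME60 (edgeR, 0 with an unadjusted p under 0.05, 0 by DESeq2 and limma-voom, 0.0% of all rows called). From EGME60 to EGME75 only trna1329-AlaCGC passed (edgeR log2 change -0.63, adjusted p = 0.0461), with 32.1% of all rows called, and DESeq2 and limma-voom called 0. On the slope 4 alanine rows rose and 6 fell in edgeR, with 61.1% of all rows called, 37.9% as higher and 23.2% as lower. The rows that rose on the slope again included that trio.

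**Figure D4:**
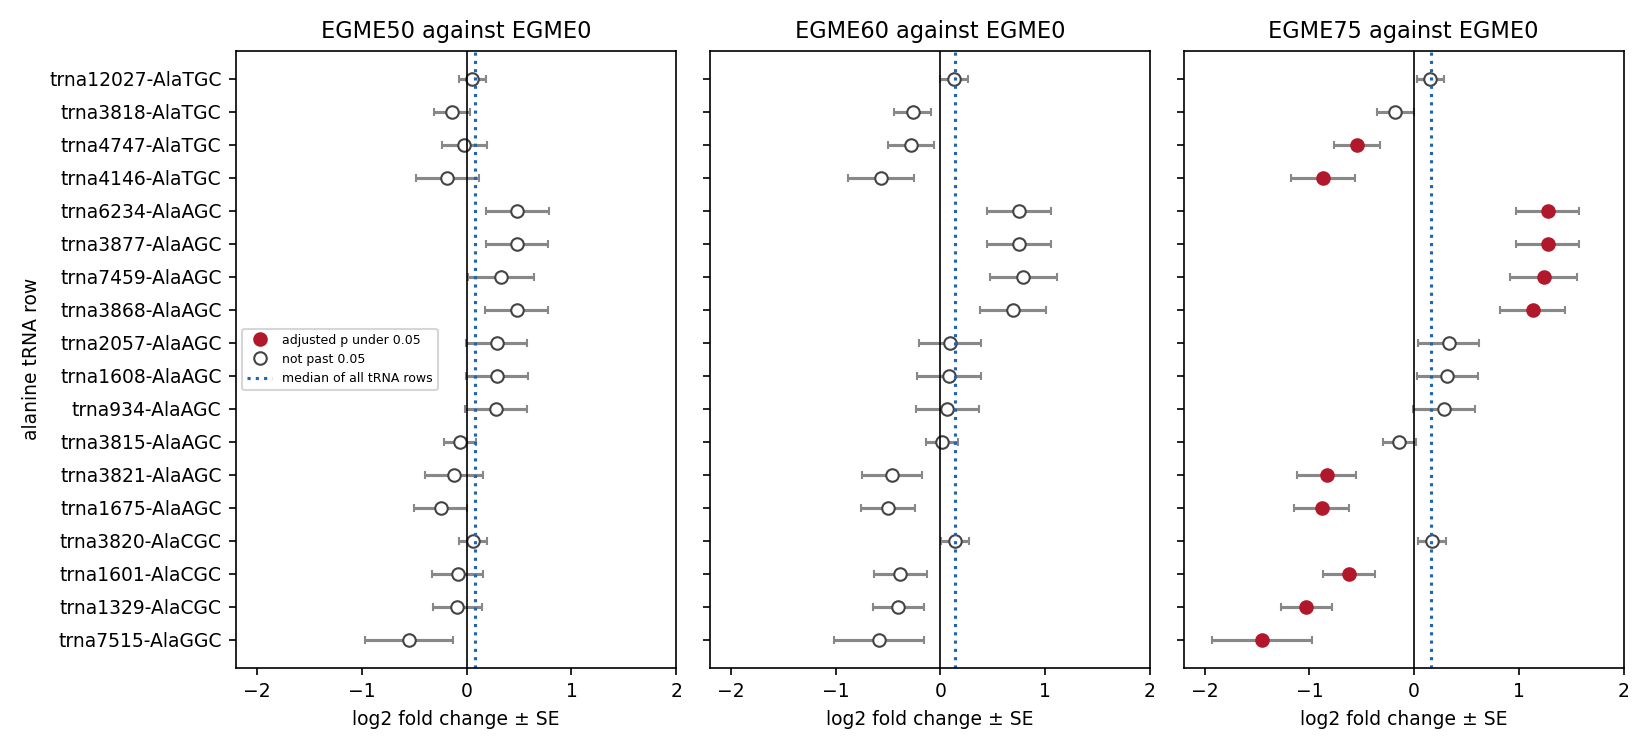
Log2 fold change ± SE from edgeR of the 18 tested alanine rows at EGME50, EGME60 and EGME75 against EGME0. Filled points have an adjusted p under 0.05, and the dotted line is the median of all tested tRNA rows, 0.16 at EGME75. At EGME75 the 4 filled points to the right are AlaAGC rows and the 7 to the left carry all 4 anticodons.

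Across libraries the alanine rows varied together to very different degrees. Over the 39 libraries, which share depth and scaling within each library, the Pearson correlation of log2 CPM with trna4146-AlaTGC was 0.94 for trna4747-AlaTGC, 0.79 for trna934-AlaAGC and 0.40 for trna3877-AlaAGC. After the group means were removed the values were 0.93, 0.91 and 0.75. Among 43 non-alanine anticodons, those most like the alanine total over the 39 libraries were ValTAC (Pearson r = 0.75), CysGCA (0.69) and LeuTAA (0.64). Over the 10 EGME0 libraries the same anticodons led, with ValTAC at 0.90, LeuTAA at 0.87 and CysGCA at 0.72. These correlations describe the libraries and were not tested.

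Alanine AGC can be set beside the 7 other anticodons that begin with A and are likewise converted to inosine. At EGME75, 5 of the 7 passed in edgeR, when 53.2% of all anticodons were called, with ThrAGT (2.32), ValAAC (1.03) and ProAGG (0.64) higher and IleAAT (-1.35) and SerAGA (-1.31) lower on the log2 scale. LeuAAG (0.44) and ArgACG (0.03) did not pass. CysGCA, whose 5′ fragments share the guanine run, changed by 0.16 (edgeR adjusted p = 0.637), against -0.82 for alanine as a class. The difference between them was not tested.

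A named tRNA-Ala entry of the separate RNAcentral table, the only 1 of 7 with counts (47075 in all), gave a second reading that may hold some of the same reads. As a share of that table's counts its lowest, median and highest values were 0.0148%, 0.0631% and 0.0720% at EGME0, 0.0132%, 0.0776% and 0.117% at EGME50, 0.00125%, 0.0412% and 0.0925% at EGME60, and 0.00224%, 0.0172% and 0.0640% at EGME75. At EGME75, 9 of 10 libraries were below the control median, and the ranges overlapped. No test was made on this entry.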

How the data were processed

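The deposited tables, as the authors provided them, hold raw counts of reads per feature from small RNA libraries made from 10 ng of RNA per sample. FastQC, Bowtie and DESeq2 are named in the submitters' processing notes without a version or role, and how reads with several matching loci were counted is not given in the sources used here. Samples were grouped by the dose in their titles, and 0 columns of the tables were without a sample. The alanine rows were defined by name alone, while the comparison and marker lists were chosen with earlier results of these data known. Rows of 1 anticodon with identical counts were taken as 1. edgeR 4.0.16 (TMM, filterByExpr, robust quasi-likelihood test, 2-sided, R 4.3.3) was fitted on all 39 libraries for rows, anticodon sums and amino acid sums, with Benjamini-Hochberg adjustment over all features tested and a threshold of 0.05. The CPM of tested rows are per 1000000 counts of all distinct tRNA rows after TMM scaling. The CPM of miRNAs are per 1000000 counts of the miRNA table, without TMM. Shares within alanine were compared with permutation tests (100000 permutations, exact for EGME60). The named rows were the 5 most abundant by mean share and the extremes at EGME75 (3 highest, 3 lowest) among rows averaging 10 counts or more. Alternatives were RLE factors, library totals, the sum of the 4 tables as library size, filters, DESeq2 1.42.0, limma 3.58.1, chip terms, all rows kept, near-identical rows (linked by a median absolute log2 ratio under 0.1 to any other row of the set) counted once, and each library left out. The scripts were tested on simulated data. Precision is limited by depth, from 1230 alanine counts in the shallowest library.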

Additional observations from a re-analysis of the deposited data

Results flagged for a closer look

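In 4 of the 72 groups of libraries checked, 1 library lay far from the rest of its group. Chance alone flags about 1 in 20 groups, so the number flagged was near the chance rate. Each time the library was EGME50 replicate 11, and the 4 values are linked shares of that library. Its alanine share of the tRNA counts was 0.626%, while the nearest of the other EGME50 libraries had 2.03%, and its AlaTGC share was 0.442% with the nearest at 1.66%. Within its alanine counts, AlaCGC held 6.30% with the nearest at 3.39%, and AlaGGC held 0.0434% with the nearest at 0.0155%. The libraries EGME60 replicate 6 and EGME60 replicate 38 also had low alanine shares of the tRNA counts, 0.251% and 0.622%, and were not flagged.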

How the results depend on the processing

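Of 402 alternative values for the 48 main results, 356 were kept. Kept means the same direction and side of the threshold, also for results that had not passed, or for counts of rows called a ratio within 1.5. The count at EGME75 with library totals was thus kept, although 6 rows were higher and 2 lower there, against 4 and 7 with TMM. The cause of the changes below was not tested. With library totals the calls of the alanine total (-0.28), AlaTGC (-0.60) and AlaCGC (-0.17) at EGME75 were lost and AlaAGC passed (0.85), and likewise on the slope (-0.29, -0.57, -0.15 and 0.75). With the sum of the 4 tables the total and AlaCGC lost their call at EGME75 (-0.72 and -0.60) and on the slope (-0.69 and -0.54). With chip as a fixed term the slope calls of the total (-0.65), AlaCGC (-0.47) and AlaGGC (-1.09) were lost. Shares within alanine that lost their call were AlaTGC at EGME50 (-2.29 with near-identical rows counted once, -4.65 with chip) and EGME60 (-7.19 with chip), AlaAGC with chip (4.57 at EGME50, 6.69 at EGME60) and AlaGGC at EGME75 (log2 ratio -0.79, chip -0.0111 points). The AlaCGC share at EGME75 was -0.0575 points with every deposited row summed. At EGME60 limma-voom gave -0.84 for AlaTGC, past the threshold, and -0.082 for AlaAGC. From EGME50 to EGME60 library totals gave 0.15 for AlaAGC and 0.081 for AlaGGC, and chip 0.32 for AlaGGC; from EGME60 to EGME75 library totals gave 0.00354 for the total. Alanine rows called at EGME60 were 2 with every row kept, library totals, no filter or a mean of at least 10 counts, and 1 with DESeq2. At EGME75 they were 17 with no filter, where more rows were tested than in the main fit. The 1 call from EGME60 to EGME75 became 0 under RLE, library totals, the sum of 4 tables, the mean filter, DESeq2, limma-voom, chip and near-identical rows counted once. On the slope 6 were called with library totals, 16 with no filter and 6 with chip. With library totals, 42 rows of the whole table were higher and 15 lower at EGME60, and 79 and 36 on the slope. The share called over all rows is not given here for the other settings, so these counts are no result about alanine rows. With every deposited row kept, trna2057-AlaAGC, trna1608-AlaAGC and trna934-AlaAGC at EGME75 were at -0.0073, -0.017 and -0.045, and trna934-AlaAGC was at -0.015 without EGME75 replicate 24 and -0.025 without replicate 31. Leaving out 1 library in turn, the ranges were -0.197 to 0.401 points (AlaCGC share, EGME50), -0.0526 to 0.321 (AlaCGC share, EGME75), -0.20 to 0.055 (AlaAGC, EGME50 to EGME60), -0.48 to 0.0090 (AlaGGC, EGME50 to EGME60), -1.10 to -0.60 (AlaGGC, EGME60, passing without EGME60 replicate 21), -0.82 to -0.55 (AlaTGC, EGME60), -0.88 to -0.66 (total, slope), -0.025 to 0.38 (trna934-AlaAGC, EGME75), 0 to 4 rows called at EGME60 and 0 to 1 from EGME60 to EGME75. At EGME75 trna4747-AlaTGC and trna1601-AlaCGC lost their call without EGME0 replicate 1 or EGME75 replicate 23, with library totals and with chip, trna4146-AlaTGC, trna1675-AlaAGC and trna3821-AlaAGC with library totals, and trna7515-AlaGGC with chip. The median of all rows at EGME75 was 0.16 with TMM, 0.39 with library totals and -0.06 with the sum of 4 tables. No paired analysis was possible because no 2 groups had a replicate number in common, and chip, which groups do share, was used as a term instead.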

Other observations

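Among the alanine rows too low to test, a pair of AlaAGC rows, chosen after their values were seen, had most of their counts at the higher doses. The row trna3883-AlaAGC on chromosome 4 had 2 counts in 1 of the EGME0 libraries, 18 counts in 5 EGME50 libraries, 67 counts in 8 EGME60 libraries and 42 counts in 7 EGME75 libraries. The row trna435-AlaAGC on chromosome 18 had 0 counts at EGME0, where 3 counts would have been 0.103 CPM over the group, 0 at EGME50, 17 at EGME60 and 10 at EGME75. Other low rows went the other way: trna8134-AlaAGC on chromosome 4 had 24, 18, 13 and 5 counts in the 4 groups.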
